A study of Mus musculus with 5 samples.

Results

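The genes described here are 10 transcription factors, many of which cells switch on within minutes of a stimulus: Jun, Junb, Jund, Fos, Fosb, Fosl2, Klf6, Klf10, Egr1 and Maff. They were taken from the count matrices by gene symbol, and all 10 were found once each among the 32285 genes listed. RNA in single nuclei was measured in livers of wild-type male C57BL6/J mice, in 3 libraries from mice kept on regular chow and 2 libraries from mice given a diet used to model metabolic dysfunction-associated steatohepatitis, or MASH. The MASH diet, called AMYLIN liver NASH diet in the labels, took 40% of its calories from fat and 20% from fructose and held 2% cholesterol. Feeding began at 10 to 12 weeks of age and lasted 5 months in both groups. How many animals each library holds is not given in the sources used here, so every p-value below measures the spread between libraries, which may be technical. The question put to the data was whether these factors differed between the diets in each liver cell lineage, and how far that difference stood above the spread among the chow libraries.

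Activator protein 1 (AP-1) is a dimer of leucine zipper proteins, made of a JUN subunit paired with another JUN or with a FOS subunit. Many of its genes belong to the immediate-early genes, whose transcripts are made without new protein synthesis after growth factors, cytokines or stress act through the MAP kinases, and whose RNA is mostly short-lived. In the liver they are known for their quick rise in regeneration and injury, and also for rising while tissue is being handled.

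All 10 genes are protein-coding in the GENCODE M21 annotation of GRCm38. Jun lies on chromosome 4, Fosl2 on 5, Fosb on 7, Junb and Jund on 8, Fos on 12, Klf6 on 13, Klf10 and Maff on 15 and Egr1 on 18. The RefSeq promoter table for GRCm38.p6 held windows from 250 bases before to 50 bases after a start site for 8 members, and none for Klf10 and Egr1. The 250 bases before the start of Klf6 (chr13:5861239-5861488, plus strand), Jun (chr4:95052223-95052472, minus strand) and Fosb (chr7:19310046-19310295, minus strand) are shown, since these are the 3 members called higher in MASH hepatocyte-like nuclei when chow replicate 3 was left out. Capitals mark a match to an EGR motif.
Klf6: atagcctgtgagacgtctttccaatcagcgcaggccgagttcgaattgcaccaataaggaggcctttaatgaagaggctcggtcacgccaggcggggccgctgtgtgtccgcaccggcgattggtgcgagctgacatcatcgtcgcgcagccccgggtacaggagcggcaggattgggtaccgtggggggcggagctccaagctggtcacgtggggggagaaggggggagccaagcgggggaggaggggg
Jun: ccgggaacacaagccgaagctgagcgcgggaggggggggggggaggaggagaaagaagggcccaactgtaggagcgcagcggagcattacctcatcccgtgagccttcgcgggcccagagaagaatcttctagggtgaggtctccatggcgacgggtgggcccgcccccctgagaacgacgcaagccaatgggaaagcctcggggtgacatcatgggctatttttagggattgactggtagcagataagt
Fosb: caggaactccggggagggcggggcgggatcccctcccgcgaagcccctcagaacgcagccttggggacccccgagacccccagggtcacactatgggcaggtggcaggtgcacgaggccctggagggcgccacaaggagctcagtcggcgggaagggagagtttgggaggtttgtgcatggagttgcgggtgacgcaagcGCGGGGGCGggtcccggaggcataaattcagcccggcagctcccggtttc
The windows were searched on both strands for TGANTCA (AP-1), TGACGTCA (the cyclic AMP response element, CRE), the CArG box bound by serum response factor, and GCGNGGGCG (EGR). The EGR letters were found in 3 of the 8 members (Fosb, Fosl2 and Maff) and in 5.55% of all 32851 windows in the table. The CRE letters were found in Maff alone, and in 1.79% of all windows. Maff had more than 1 window in the table, and only 1 of them held its EGR and CRE letters. Counts of members and shares of windows are thus unlike measures. No member window held the AP-1 letters or the CArG box, which 7.81% and 1.63% of all windows held. These matches describe the letters only.

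The matrices held 57080 barcodes, and 51470 nuclei were left after the filters. Libraries had from 35612373 to 49137377 unique molecular identifiers (UMIs, each 1 RNA molecule as captured) in total, and the median mitochondrial share was at most 3.55% except in MASH replicate 1, where it was 7.42%. Clusters were named from marker genes, the hepatocyte-like ones by Hnf4a and by the lack of markers of other cell types. This put 42054 nuclei in 4 lineages: 32516 hepatocyte-like, 3186 stellate-like, 2490 endothelial-like and 3862 immune-like. Levels are given in CPM, the counts of a gene at a common total per sum, which are unscaled for summed markers and scaled with TMM factors for members and listed genes. All 12 hepatocyte markers were found in every library of the hepatocyte-like nuclei, with a summed level of 18630 to 21970 CPM in chow and 9299 to 9442 CPM in MASH. The 13 stellate markers summed to 8898 to 15087 CPM in the stellate-like nuclei, and the 13 endothelial markers to 5730 to 11403 CPM in the endothelial-like nuclei. Among immune-like nuclei the 12 macrophage markers summed to 1838 to 3976 CPM. Hepatocyte-like clusters were almost separate between libraries: the cluster that held most nuclei of a library took 49.4%, 52.3% and 52.5% of them in chow replicates 1, 2 and 3, a different cluster each time, while 1 shared cluster took 46.8% and 61.2% in the MASH libraries. Macrophage-like nuclei of chow lay in 1 cluster (76.6% to 95.2% of them) and those of MASH in another (99.9% in both). Endothelial-like nuclei divided in the same way. Stellate-like nuclei of chow replicates 2 and 3 lay mostly in 1 cluster (66.2% and 94.99%), those of chow replicate 1 and MASH replicate 1 in another (72.4% and 61.8%) and those of MASH replicate 2 in a further one (69.6%). Of the 162 nuclei in the main neutrophil-like cluster 161 came from chow replicate 1. Pairs of libraries shared 23 to 48 cell barcodes.

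The chow libraries differed widely in these genes, and the same library led each time. Chow replicate 3 was the highest chow library for all 10 members in each of the 4 lineages. Over all genes tested it was the highest chow library for 37.5% in hepatocyte-like, 32.9% in stellate-like, 32.7% in endothelial-like and 33.1% in immune-like nuclei. It was also the highest of all 5 libraries, MASH included, for 6 of 10 members in hepatocyte-like nuclei and for 9 of 10 in each of the other lineages. In hepatocyte-like nuclei the highest chow level was from 1.72 times (Klf10) to 8.21 times (Fosb) the lowest, with a median of 4.70 times over the members. The standard deviation (SD) among chow libraries, on the log2(CPM + 1) scale, had a median of 0.91 over the members and 0.31 over all genes tested in these nuclei. In the other lineages it was 0.87 for the members tested against 0.48 in stellate-like nuclei, 0.71 against 0.46 in endothelial-like nuclei, and 0.85 against 0.46 in immune-like nuclei.

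**Figure D1:**
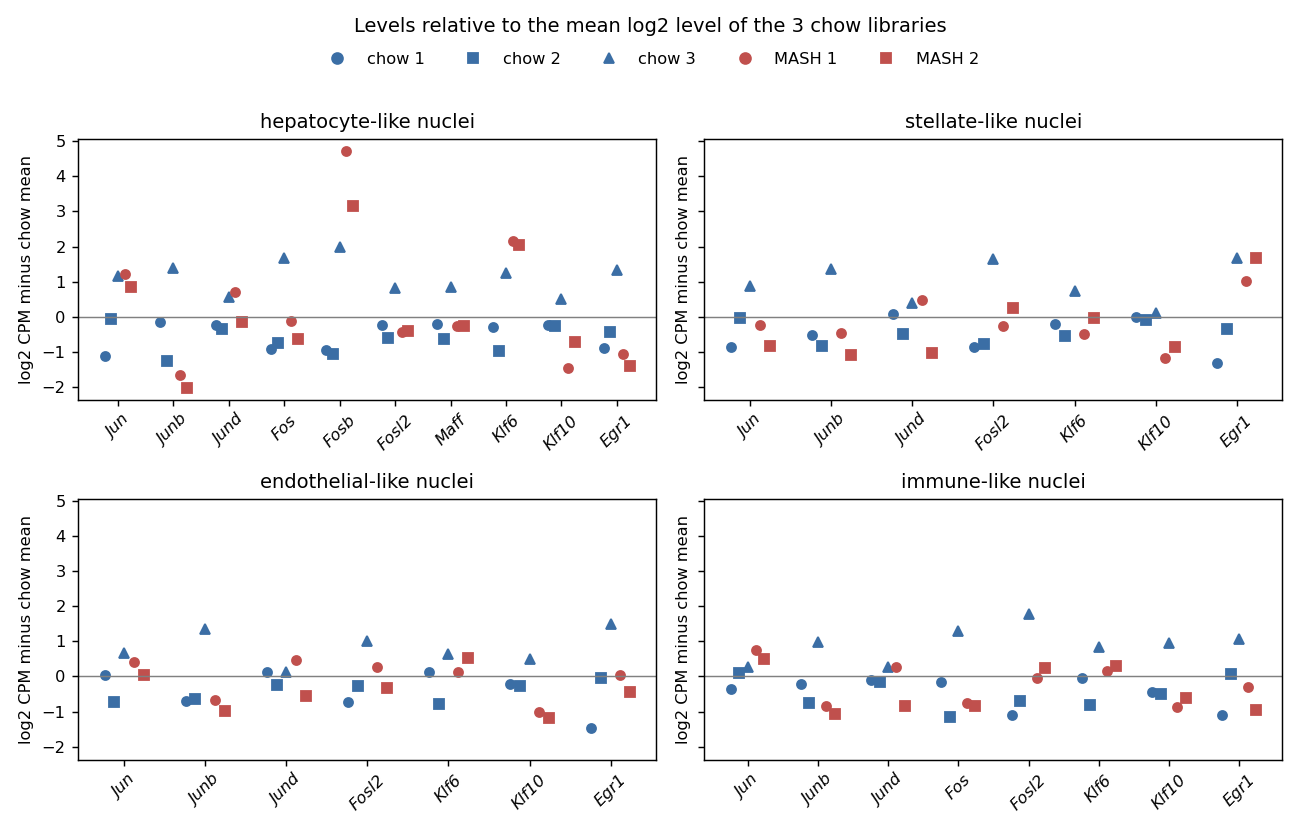
Level of each gene tested in a lineage in each of the 5 libraries, relative to the mean of the chow libraries and on a log2 scale. Chow replicate 3 is the highest chow library for every gene shown in every lineage.

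The same library carried the acute phase genes, which hepatocytes release in inflammation. The 12 listed genes, among them Saa1, Saa2, Lcn2, Mt1 and Fgg, summed to 6703, 5554 and 53820 CPM in the hepatocyte-like nuclei of chow replicates 1, 2 and 3, and to 1916 and 1704 CPM in MASH replicates 1 and 2. Chow replicate 3 was the highest of all 5 libraries for 12 of 12 of them. Heat shock genes, which encode protein-folding chaperones, summed to 1317, 2479 and 2780 CPM in chow and to 869.2 and 774 CPM in MASH. Chow replicate 3 was thus far above the others for acute phase genes and close to chow replicate 2 for heat shock genes. The part these differences have in the members' levels was not tested.

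Among the JUN subunits in hepatocyte-like nuclei, Jun tended upwards in MASH and Junb downwards. Jun encodes c-JUN, the subunit with the strongest transactivating domain, and was measured at 35.8, 72.9 and 173.7 CPM in chow replicates 1, 2 and 3 and at 179.8 and 138.5 CPM in MASH replicates 1 and 2. The chow library with the highest level lay between both MASH libraries, so the diets overlapped on this TMM-scaled level. In unscaled CPM they did not, with Jun at 38.6, 68.1 and 132.2 in chow and 196.8 and 164.8 in MASH. The log2 fold change of MASH over chow was 0.76 ± 0.58 (SE, edgeR quasi-likelihood adjusted p = 0.398). Junb, whose product is a weaker activator that can oppose c-JUN, stood at 275.6, 127.2 and 798.8 CPM in chow and 96.7 and 74.3 CPM in MASH. In MASH both libraries were under every chow library, at -2.23 ± 0.75 on the log2 scale (SE, edgeR adjusted p = 0.0902). Jund, which encodes the JUN subunit present in most resting cells, was at 81.5, 75.6 and 141.3 CPM in chow and 154.6 and 86.2 CPM in MASH, with a log2 fold change of 0.28 ± 0.38 (SE, edgeR adjusted p = 0.646). Its spread among chow libraries, 1.87 times from lowest to highest, was the second smallest of the 10 members.

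FOS subunits were scarcer in counts, and Fosb had the largest fold of all members. Fosb, a FOS subunit that pairs with JUN proteins, had 2, 2 and 16 UMIs in the hepatocyte-like nuclei of chow replicates 1, 2 and 3 and 77 and 31 UMIs in those of MASH replicates 1 and 2. This came to 0.0701, 0.0647 and 0.531 CPM in chow and 3.53 and 1.21 CPM in MASH, so the diets did not overlap. Its log2 fold change was 3.38 ± 0.92 (SE, edgeR adjusted p = 0.0545), with 2 UMIs in each of the lower chow libraries behind it. Fos itself was at 4.59, 5.14 and 27.3 CPM in chow and 7.93 and 5.60 CPM in MASH. Leaving chow replicate 3 aside, both MASH libraries lay above the chow libraries, and its log2 fold change turned from -0.87 (edgeR adjusted p = 0.477) to 0.44 (edgeR adjusted p = 0.348). Fosl2, which encodes FRA-2, was at 46.4, 35.9 and 94.7 CPM in chow and 39.7 and 41.1 CPM in MASH, a log2 fold change of -0.54 ± 0.41 (SE, edgeR adjusted p = 0.393). Maff encodes a small MAF protein, which binds DNA but has no transactivating domain, and was at 12.6, 9.47 and 26.2 CPM in chow and 12.2 and 12.3 CPM in MASH. For both Fosl2 and Maff the MASH levels lay within the range of the chow libraries.

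The zinc finger factors divided, with Klf6 above and Klf10 and Egr1 below the chow libraries in MASH. Klf6, a Krüppel-like factor induced by injury, was at 28.1, 17.3 and 81.2 CPM in chow and 152.1 and 139.2 CPM in MASH. All chow libraries lay below both MASH libraries, and the log2 fold change was 1.79 ± 0.59 (SE, edgeR adjusted p = 0.0866). Klf10, a Krüppel-like factor induced by TGF-β that also follows the circadian clock in liver, was at 201.3, 195.8 and 336.5 CPM in chow and 85.9 and 144.5 CPM in MASH. Its spread among chow libraries was the smallest of the members, and its log2 fold change was -1.09 ± 0.37 (SE, edgeR adjusted p = 0.0962). Egr1, an early growth response factor that follows ERK signalling, was at 61.2, 83.9 and 287.1 CPM in chow and 54.5 and 43.4 CPM in MASH, a log2 fold change of -1.56 ± 0.66 (SE, edgeR adjusted p = 0.152). The gap between the lowest chow library and the higher MASH library was small for Egr1 beside the spread within chow.

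**Figure D2:**
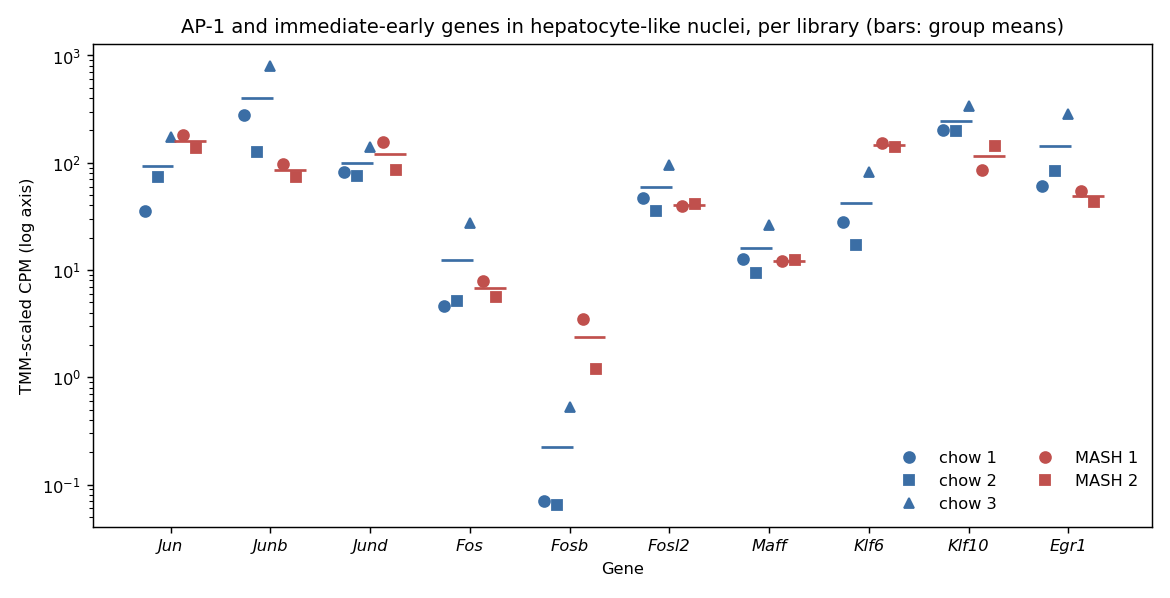
TMM-scaled CPM of the 10 genes in hepatocyte-like nuclei on a log axis, with 1 point per library and the mean of each diet. Klf6 and Fosb have both MASH libraries above all chow libraries, and Junb, Klf10 and Egr1 have both below.

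No member passed an adjusted p of 0.05 in hepatocyte-like nuclei (edgeR quasi-likelihood test), where 12.7% of the 14872 genes tested did, and 4 members had an unadjusted p under 0.05. The MASH libraries were both above every chow library for 2 of 10 members, against 29.1% of all genes tested, and below them for 3 of 10, against 25.2%. The median log2 fold change was -0.47 over the 10 members and -0.02 over all genes tested. With DESeq2 5 members passed: Fosb and Klf6 higher in MASH, and Junb, Klf10 and Egr1 lower. Without chow replicate 3 the edgeR test called 3 members, each higher in MASH, and these were Jun, Fosb and Klf6. Their log2 fold changes were then 1.51 (edgeR adjusted p = 0.0339) for Jun, 4.996 (edgeR adjusted p = 0.0114) for Fosb and 2.65 (edgeR adjusted p = 0.00412) for Klf6, while that of Junb went from -2.23 to -1.27 and that of Egr1 from -1.56 to -0.61, and neither was called. With Storey q-values, the adjustment named in the methods of the study, the edgeR test on all libraries called Fosb, Junb, Klf6 and Klf10. Without a filter on low counts it called Fosb, Junb and Klf6. Which of these genes were called thus depended on chow replicate 3, and also on the tool, the filter and the adjustment.

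Markers of other cell types also differed between the diets within the hepatocyte-like nuclei. The 10 cholangiocyte markers summed to 55.8 to 93.7 CPM in chow and 257 to 304 CPM in MASH, and the 12 macrophage markers to 18.9 to 33.6 CPM and 60.8 to 93.7 CPM. The 10 T and NK cell markers summed to 1.21 to 5.25 CPM in chow and 115 to 133 CPM in MASH, nearly all of it from Themis, at 0.784 to 4.27 CPM and 113.5 to 130.4 CPM. The other 9 markers of that list summed to 0.422 to 1.59 CPM in chow and 1.91 to 2.45 CPM in MASH. The 13 stellate markers summed to 44.2 to 46.6 CPM in chow and 98.9 to 122.5 CPM in MASH, which is far under their sum in stellate-like nuclei. Their part in the members' levels was not tested.

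In the other lineages the members showed no rise in MASH that passed the test. In stellate-like nuclei 7 members had enough counts to be tested, none was called (edgeR, adjusted p from 0.223 to 0.884), 1 had an unadjusted p under 0.05, and DESeq2 called none, against 0.848% of all genes tested. In endothelial-like nuclei none of 7 was called, 1 had an unadjusted p under 0.05, DESeq2 called none, and the background was 0.805%. In immune-like nuclei none of 8 was called, 2 had an unadjusted p under 0.05, DESeq2 called none, and the background was 2.15%. Log2 fold changes were negative for 6 of 7, 5 of 7 and 6 of 8 members tested. Fosb and Maff had too few counts to be tested in any of these lineages, and Fos only passed in immune-like nuclei. Each of these sums held 195 to 1638 nuclei, against 4562 to 9136 for hepatocyte-like nuclei.

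Klf10 was the only member with both MASH libraries below all chow libraries in every lineage. In stellate-like nuclei it was at 100.3, 96.0 and 108.8 CPM in chow and 45.3 and 56.5 CPM in MASH, a log2 fold change of -0.996 ± 0.32 (SE, edgeR adjusted p = 0.223). Endothelial-like nuclei had 105.7, 102.4 and 173.6 CPM in chow and 61.0 and 53.9 CPM in MASH, and immune-like nuclei 77.8, 76.2 and 205.4 CPM and 59.0 and 69.4 CPM. The difference was about as large in each lineage, with log2 fold changes from -1.16 to -0.93. It was the only member below in stellate-like nuclei (1 of 7 tested, against 14.4% of all genes tested there) and in endothelial-like nuclei (1 of 7, against 11.3%), while no member was above, against 15.3% and 13.2%. In immune-like nuclei Klf10 and Junb were below (2 of 8, against 14.9%) and Jun was above (1 of 8, against 17%).

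Klf6 in these lineages did not follow the hepatocyte pattern. Stellate-like nuclei had 106.0, 82.3 and 203.5 CPM in chow and 85.8 and 118.6 CPM in MASH, with the diets overlapping. Endothelial-like nuclei had 88.5, 46.9 and 125.8 CPM in chow and 88.6 and 116.3 CPM in MASH. Immune-like nuclei had 162.2, 95.2 and 299.3 CPM in chow and 185.9 and 203.9 CPM in MASH. In each of these lineages the MASH libraries thus lay inside the chow range, and the log2 fold changes were -0.38 ± 0.40, 0.20 ± 0.40 and 0.05 ± 0.44 (SE). Within a library, Klf6 in every chow replicate was higher than in the hepatocyte-like nuclei of the same library in all 3 lineages. In the MASH libraries it was at 45.5% to 77.6% of that level in stellate-like and endothelial-like nuclei. In immune-like nuclei it was at 98.4% and 133.2% in MASH replicates 1 and 2.

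Jun and Egr1 also parted between lineages. Jun in stellate-like nuclei was at 43.5, 77.7 and 147.1 CPM in chow and 67.9 and 44.2 CPM in MASH, and in immune-like nuclei at 46.7, 64.8 and 72.4 CPM and 102.0 and 85.8 CPM. The diets overlapped in the first and not in the second. Egr1 in stellate-like nuclei was at 9.46, 18.3 and 74.5 CPM in chow and 47.2 and 74.4 CPM in MASH, which is 5, 4 and 37 UMIs against 50 and 133. Its log2 fold change there, 0.77 ± 0.62 (SE, edgeR adjusted p = 0.610), was opposite to that in hepatocyte-like nuclei, and neither passed the test. Fos in immune-like nuclei, where it was at 37.8, 19.0 and 103.7 CPM in chow and 25.0 and 23.3 CPM in MASH, stood at 254% to 800% of its level in the hepatocyte-like nuclei of the same library.

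**Figure D3:**
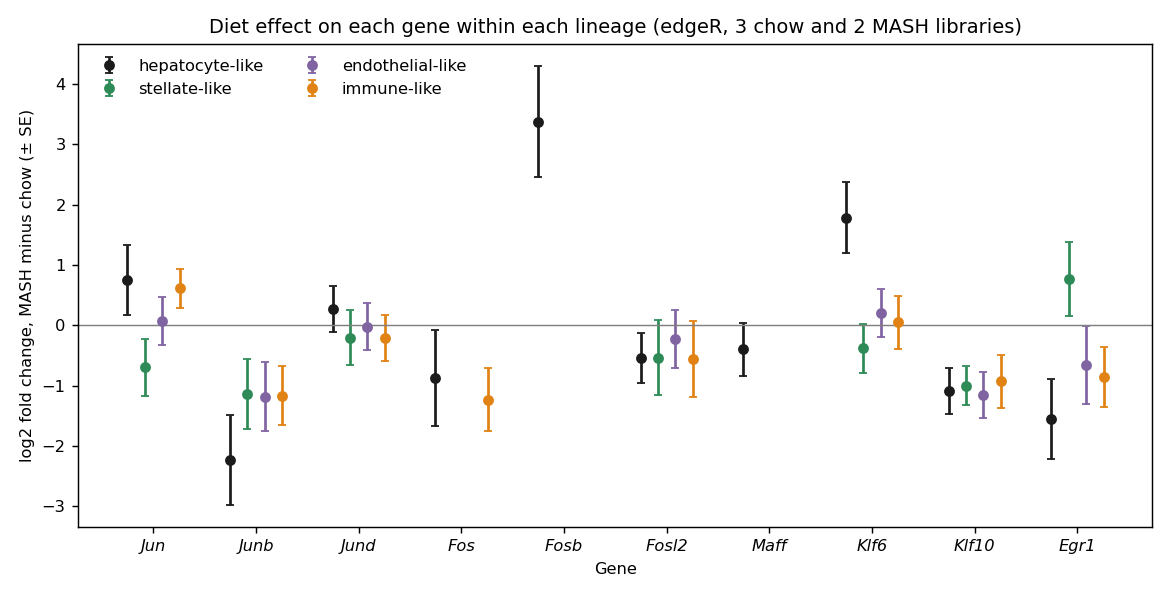
Log2 fold change of MASH over chow with its SE for each member tested, by lineage. Klf6 is at 1.79 in hepatocyte-like nuclei and between -0.38 and 0.20 in the other lineages, while Klf10 is negative in all 4.

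The difference between lineages was tested in 1 model over the 20 sums, with the library as a block, and 4 of 10 members were called for a diet effect that differed between lineages, against 8.06% of the 11542 genes tested. Klf6 had the strongest result of the members (edgeR adjusted p = 9.48e-05). Its diet effect was lower than the hepatocyte one by -2.35 ± 0.32 in stellate-like, -1.86 ± 0.33 in endothelial-like and -1.88 ± 0.31 in immune-like nuclei, on the log2 scale (SE). Fosb had an edgeR adjusted p = 0.000239, with differences of -5.74 ± 0.83 in stellate-like, -3.34 ± 2.26 in endothelial-like and -5.22 ± 0.97 in immune-like nuclei (SE). Fosb had too few counts to be tested by diet in each of those 3 lineages, so these values rest on few UMIs and are given as a description. Egr1 (edgeR adjusted p = 0.0038) differed in the other direction, by 2.42 ± 0.41 in stellate-like nuclei, and Jun (edgeR adjusted p = 0.0363) by -1.61 ± 0.39 in the same lineage. Klf6 was called under every alternative tried, including the omission of each library in turn. Fosb was called in all but the fit without chow replicate 3, where it fell below the count filter. Jun was lost with DESeq2, whose interaction test made more false calls on simulated data than its threshold allows, under the single-marker gate and without chow replicate 2, chow replicate 3, MASH replicate 1 or MASH replicate 2, and Egr1 was lost under the gate (edgeR adjusted p = 0.0743) and without MASH replicate 2 (edgeR adjusted p = 0.269). Junb was called in place of Jun without chow replicate 2. The remaining 6 members, Junb, Jund, Fos, Fosl2, Maff and Klf10, had adjusted p from 0.125 to 0.934.

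Hepatocyte RNA was present in the sums of the other lineages. The hepatocyte markers reached 42.6% to 121% of their level in the hepatocyte-like nuclei of the same library, and Hnf4a alone 11.5% to 45.3%. Klf10 was under the percentage of the marker list in 15 of 15 sums, at 34.5% to 73.0% of its hepatocyte level. Klf6 was above its own hepatocyte level in 10 of 15 sums, and Fosl2 in 8 of 15. The part of hepatocyte RNA in the levels of Klf10, Junb and Egr1 in those lineages was not tested. In bulk-like sums of this kind, fewer nuclei that make a transcript and less of it in each nucleus cannot be told apart.

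Shares of hepatocyte-like nuclei with a UMI were therefore compared after thinning each nucleus to 500 UMIs, which left no nucleus out. Klf6 was found in 1.45%, 0.668% and 2.67% of the nuclei of the chow libraries, in replicate order, against 7.37% and 6.63% in MASH. Without thinning these shares were 11.5%, 5.20% and 21.5% in chow and 36.6% and 37.8% in MASH. In endothelial-like nuclei, thinned in the same way, Klf6 was found in 2.23% to 5.33% in chow and 3.01% and 5.50% in MASH, with both diets in the same range. Jun was found in 1.91%, 2.99% and 6.17% of thinned hepatocyte-like nuclei in chow and 8.46% and 6.48% in MASH, and Egr1 in 2.91%, 3.58% and 9.49% against 1.93% and 2.47%. The diets did not overlap for 6 of 10 members (Jun, Junb, Fosb, Klf6, Klf10 and Egr1), while 46.2% of all genes tested did not overlap either. The exact two-sided permutation test over 5 libraries cannot go below p = 0.1, and after adjustment over the 10 members the lowest value was 0.333.

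Members were also compared between hepatocyte-like nuclei with and without the markers of disease-associated hepatocytes (daHep), a state seen in MASH, within the same library. Nuclei with at least 1 UMI of Nrg1, Anxa2 or Sox4 were 1.21%, 2.13% and 7.11% of the hepatocyte-like nuclei in the chow libraries, in replicate order, and 52.0% and 41.1% in the MASH libraries. The widest 95% Wilson interval, that of MASH replicate 1, ran from 50.5% to 53.4% and covers counting error only. With the library as a block, 4 of 9 members tested were higher in the positive nuclei and none lower, against 7.17% of all genes tested called in either direction. Klf6 was at 83.5, 26.3, 98.3, 198.7 and 185.5 CPM in the positive nuclei of chow replicates 1, 2 and 3 and MASH replicates 1 and 2. It was at 27.5, 16.2, 78.0, 99.0 and 105.8 CPM in the negative nuclei of the same libraries. Klf6 was therefore higher in 5 of 5 libraries, by 0.79 ± 0.08 on the log2 scale (SE, edgeR adjusted p = 2.67e-07). Jun was also higher in 5 of 5 libraries, by 0.39 ± 0.07 (SE, edgeR adjusted p = 0.000545), Fos in 4 of 5, by 0.69 ± 0.16 (SE, edgeR adjusted p = 0.00624), and Egr1 in 4 of 5, by 0.23 ± 0.06 (SE, edgeR adjusted p = 0.0191). Junb, Jund, Fosl2, Maff and Klf10 were not called, and Fosb had too few counts. The study itself names Klf6 and Jun with Nrg1, Anxa2 and Sox4 among the genes enriched in daHep of its chow and MASH livers. The higher levels of Klf6 and Jun in this split are therefore not independent of that list.

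Among negative nuclei alone, Klf6 kept the order of the diets. Its highest chow level was 78.0 CPM, in chow replicate 3, and its lower MASH level 99.0 CPM. Jun did not, at 170.1 CPM in chow replicate 3 and 146.2 and 121.2 CPM in MASH. Negative nuclei only lack a UMI of Nrg1, Anxa2 and Sox4, so they can include missed daHep nuclei. After thinning to 500 UMIs, 13.9% and 10.0% of nuclei in MASH replicates 1 and 2 were positive. Positive nuclei held more UMIs than negative nuclei in 4 of 5 libraries, with a median of 4859 against 3268 in MASH replicate 2. When nuclei were thinned to 500 UMIs before the split, chow replicate 1 kept only 12 positive nuclei and was left out, and Klf6 alone of the members was called, by 0.89 (edgeR adjusted p = 0.000285). Egr1 was then at 0.01 and was also lost without chow replicate 3, MASH replicate 1 or MASH replicate 2. Fos was lost without MASH replicate 1 or MASH replicate 2, while Jun and Klf6 were called without any single library. The summed cholangiocyte markers were higher in the positive nuclei in 5 of 5 libraries, at 72.3 to 314.5 CPM against 55.3 to 293.8 CPM. Stellate, endothelial, macrophage and T and NK cell markers, the last of them mostly Themis in hepatocyte-like nuclei, were higher in 1 to 3 of 5. The part of these markers and of depth in the result was not tested.

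Listed genes of the same programme were compared in the daHep split, where 7.17% of all genes were called in either direction. Of 29 other AP-1 and immediate-early genes tested, 9 were higher in the positive nuclei, 2 were lower and 18 were not called, with a median log2 difference of 0.08. Atf3, a stress-induced partner of JUN proteins, was higher by 1.35 ± 0.23 (SE, edgeR adjusted p = 0.000159), Ier3, which encodes a regulator of apoptosis, by 1.09 ± 0.16 (SE, edgeR adjusted p = 2.85e-05), and Myc, which drives cell growth, by 0.95 ± 0.15 on the log2 scale (SE, edgeR adjusted p = 4.96e-05). Of 12 MAP kinase feedback genes 6 were higher and none lower, Dusp5, a nuclear phosphatase of ERK, by 1.09 ± 0.21 and Dusp8 by 1.02 ± 0.17 on the log2 scale (SE). Of 12 acute phase genes 3 were higher and none lower, and these were Lcn2, Mt1 and Mt2. Of 8 AP-1 targets 3 were higher and 5 not called, the chemokine genes Ccl2 by 1.30 ± 0.17 and Cxcl2 by 0.79 ± 0.21, and Hbegf by 1.28 ± 0.24. The median log2 difference was 0.23 over the 9 members tested, 0.26 over the feedback genes and -0.01 over all genes tested. With nuclei thinned to 500 UMIs before the split, the genes called among all tested went from 910 to 33.

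**Figure D4:**
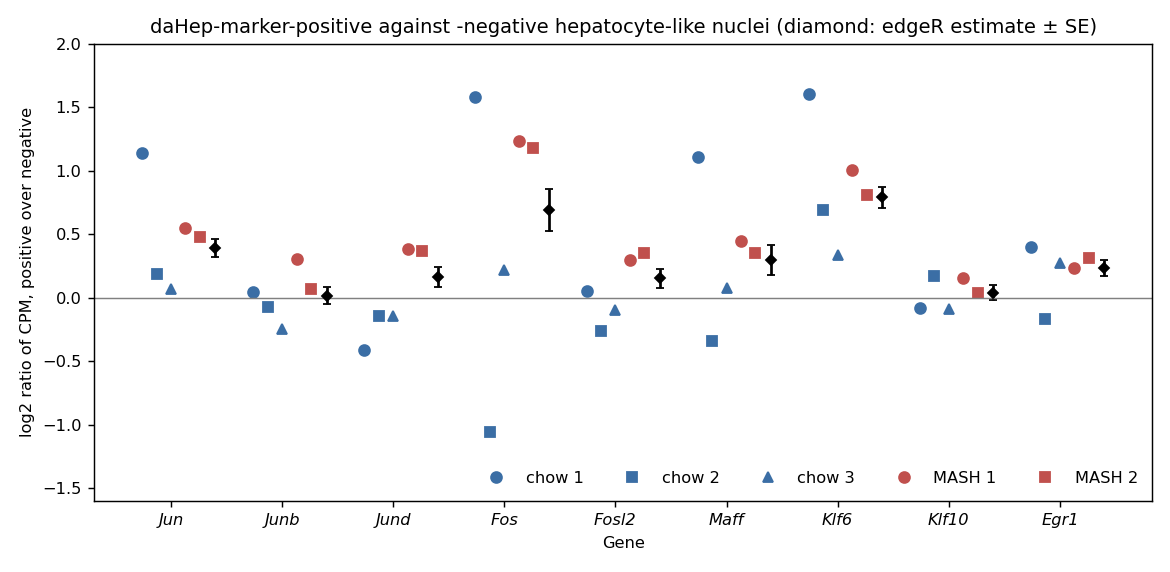
Log2 ratio of CPM in hepatocyte-like nuclei positive over negative for daHep markers, for each member tested. Each library has a point, and a diamond gives the edgeR estimate with its SE. Klf6 and Jun are higher in the positive nuclei in 5 of 5 libraries.

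Hepatocytes differ along the lobule, from the portal vein to the central vein, and the members were compared between the ends of hepatocyte-like nuclei ranked within a library by a pericentral minus periportal marker score and cut into 3 equal parts. Over all 5 libraries only Fosl2 was called among 9 members tested, against 20.3% of all genes tested. Fosl2 was at 53.4, 43.8, 110.9, 41.1 and 43.0 CPM in pericentral nuclei of chow replicates 1, 2 and 3 and MASH replicates 1 and 2, and at 41.9, 26.9, 83.4, 32.8 and 36.4 CPM in periportal nuclei. It was higher in pericentral nuclei in 5 of 5 libraries, by 0.41 ± 0.08 on the log2 scale (SE, edgeR adjusted p = 0.00716). Junb was higher in periportal nuclei in 5 of 5 libraries, by a log2 difference of -0.47 ± 0.16 (SE, edgeR adjusted p = 0.0731), and did not pass the test. Of the 29 other immediate-early genes tested, 5 were called higher in pericentral nuclei, Ccn1 by 1.43 ± 0.20 and the orphan receptor gene Nr4a2 by 2.02 ± 0.37 among them, and 3 in periportal nuclei, Ier2, Ier5 and the antiproliferative gene Btg1, by log2 differences of -0.75 ± 0.10, -0.87 ± 0.13 and -0.52 ± 0.06 (SE).

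Klf10 and Egr1 were higher at the periportal end in chow, and in MASH this difference was small or turned around. Klf10 in chow was at 89.5, 117.6 and 215.5 CPM in pericentral nuclei and 340.8, 267.2 and 436.1 CPM in periportal nuclei. In MASH it was at 99.0 and 164.5 CPM in pericentral and 70.6 and 121.9 CPM in periportal nuclei. Its pericentral minus periportal log2 difference was thus -1.92, -1.18 and -1.01 in chow and 0.48 and 0.43 in MASH, with no overlap and opposite signs. A test of this difference between the diets, added after these values had been seen, gave 1.82 ± 0.23 (SE, edgeR adjusted p = 0.00486) for Klf10. Egr1 was at 17.1, 38.8 and 170.6 CPM in pericentral and 126.9, 132.4 and 389.8 CPM in periportal nuclei of chow, and at 47.3 and 45.2 CPM and 52.2 and 40.7 CPM in MASH. Its difference between the diets was 1.85 ± 0.39 (SE, edgeR adjusted p = 0.0368), from log2 differences of -2.82, -1.75 and -1.19 in chow and -0.14 and 0.15 in MASH.

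Those 2 of 10 members were called, against 3.29% of all genes tested, and 3 members (Jun, Jund and Klf10) had opposite signs in every chow and every MASH library, against 9.83%. Leaving out either MASH library removed both calls: Klf10 was then at 1.81 without MASH replicate 1 (edgeR adjusted p = 0.0906) and 1.86 without MASH replicate 2 (edgeR adjusted p = 0.117), and no more than 15 genes in all were called. Egr1 was also lost without chow replicate 2 (edgeR adjusted p = 0.0889). Pericentral nuclei held more UMIs than periportal nuclei in 5 of 5 libraries, with medians of 3415 to 4826.5 against 3024 to 3956. The part of depth was not tested. The 3 parts were cut by rank within each library, whatever the spread of the score. Whether the score separated the ends equally well in both diets was not tested.

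**Figure D5:**
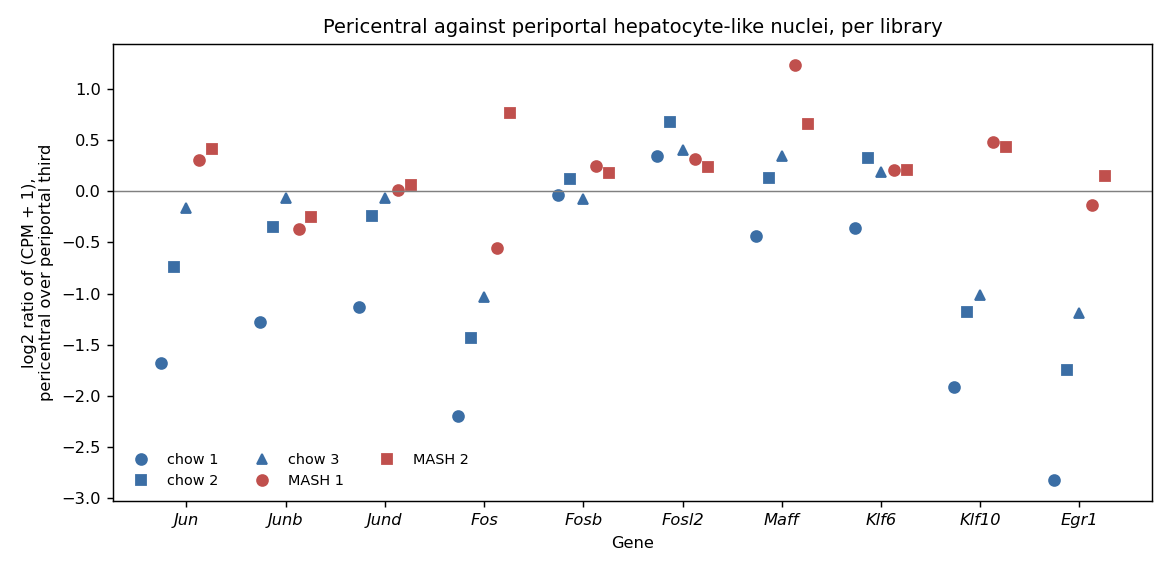
Pericentral minus periportal log2 difference of the members in hepatocyte-like nuclei, with 1 point per library. Klf10 is at -1.92 to -1.01 in the chow libraries and at 0.43 and 0.48 in the MASH libraries.

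Other genes of the same programme were taken from lists. Of 38 other AP-1 and immediate-early genes, 33 were tested in hepatocyte-like nuclei, 3 rose in MASH and 2 fell, a share near the 12.7% of all genes called there. Those that rose were Ccn1 by 2.38 ± 0.47 and Ccn2 by 2.83 ± 0.53, which encode secreted matricellular proteins, and Klf4, a Krüppel-like factor, by 2.21 ± 0.55 on the log2 scale (SE, edgeR adjusted p = 0.0229, 0.0209 and 0.0426). Gadd45g, a growth arrest gene, was at 370.5, 391.3 and 822.9 CPM in chow and 24.3 and 24.2 CPM in MASH, a log2 fold change of -4.44 ± 0.50 (SE, edgeR adjusted p = 0.00515). Socs3, an inhibitor of cytokine signalling, changed by -2.61 ± 0.57 (SE, edgeR adjusted p = 0.0306). Gadd45g was also called lower in MASH in stellate-like (-2.78 ± 0.51), endothelial-like (-2.86 ± 0.54) and immune-like nuclei (-2.64 ± 0.45), and Ccn1 higher in endothelial-like nuclei (2.36 ± 0.39), on the log2 scale with SE. These were the only genes of that list called in those lineages. Hepatocyte RNA was present in the sums of those lineages, and its part in the lower Gadd45g there was not tested.

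Of 13 genes known as AP-1 targets tested in hepatocyte-like nuclei, where 12.7% of all genes were called, 7 were not called, none was lower in MASH and 6 were higher: Areg and Hbegf, which encode EGF receptor ligands, Plau and Mmp13, which encode proteases, Cd44, which encodes a hyaluronan receptor, and Ccnd1, which encodes cyclin D1. Ccnd1 was at 3.47, 10.6 and 6.80 CPM in chow and 49.7 and 36.7 CPM in MASH, a log2 fold change of 2.63 ± 0.44 (SE, edgeR adjusted p = 0.0157), and Cd44 at 0.736, 1.49 and 2.19 CPM against 9.99 and 10.97 CPM, a log2 fold change of 2.83 ± 0.46 (SE, edgeR adjusted p = 0.0146). Areg, Plau and Mmp13 reached at most 2.38, 0.973 and 1.24 CPM in any library. In immune-like nuclei 2 of 11 targets fell, Il1b and Mmp9, both of which neutrophils make, and Mmp9 is also on the list of neutrophil markers. Mmp9 was at 173.3, 15.2 and 27.4 CPM in chow and 6.37 and 4.24 CPM in MASH. The highest library for Mmp9 was chow replicate 1, which held most of the neutrophil-like nuclei, and the part of those nuclei was not tested.

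Among regulators of the pathway, 1 of 15 MAP kinase feedback genes was called in hepatocyte-like nuclei, Dusp10, a phosphatase of JNK and p38, higher by 1.65 ± 0.32 on the log2 scale (SE, edgeR adjusted p = 0.0219). None of 13 listed MAP kinases, their upstream kinases and ternary complex factors was called in any of the 4 lineages. Of the 12 heat shock genes 5 fell in hepatocyte-like nuclei, Hspa8 by the largest amount of those called, at -1.86 ± 0.39 (SE, edgeR adjusted p = 0.0264), and of the 12 acute phase genes 3 fell, Mt1, Mt2 and Fgg. Both lists had negative median log2 fold changes in all 4 lineages. Of the genes tested in the other lineages, 1 of 10 heat shock genes (Hspa1b, in stellate-like nuclei) was called lower. So were 2 of 11 acute phase genes (Mt1 and Mt2, in immune-like nuclei). Hepatocyte RNA was present in the sums of those lineages, and its part in these values was not tested.

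Across the 20 sums of library and lineage, the mean log2 CPM of the 10 members was followed most closely by Dhx40 (Pearson's r = 0.845), Ddit3 (0.818), Cd2bp2 (0.811), Mrps18b (0.807) and Slc11a2 (0.795) among genes outside the lists. The sums share libraries and differ in depth, so these values are descriptions. Each member's correlation with the mean of the other 9 ran from 0.331 for Klf10 and 0.341 for Fosb to 0.772 for Maff.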

How the data were processed

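Nuclei of liver were sorted and profiled with droplet-based 3-prime libraries. According to the methods of the study, reads were mapped to the GRCm38 transcriptome with Cell Ranger 8.0.1 and intronic reads were left out. The deposited matrices hold the resulting UMI counts, not normalized, for the barcodes kept by the authors. They hold no cell type names.

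Nuclei with fewer than 300 genes were removed. Doublets were scored with Scrublet in scanpy 1.11.5. Its automatic threshold marked 0 to 3 nuclei per library, so nuclei with the highest scores were removed at 0.8% per 1000 nuclei. Nuclei were clustered in 2 rounds (3000 variable genes, 30 principal components, Leiden resolution 1.5), with the members and lists left out. A cluster was named from marker lists when at least 3 markers and the mean of its list stood at a log2 fold of at least 1. Hepatocyte-like clusters also needed a median mitochondrial share under 10% and at least 100 CPM of Hnf4a. These thresholds were set after the data were seen, and 7326 nuclei stayed unnamed.

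Counts were summed per library and lineage, with at least 20 nuclei per sum, and tested in R 4.3.3 with the edgeR 4.0.16 quasi-likelihood test (TMM, filterByExpr, Benjamini-Hochberg over all genes tested, called at 0.05, two-sided). Levels are TMM-scaled CPM. Each SE was taken as the absolute log2 fold change divided by √F. Shares were compared with an exact permutation test. Steps across genes were tested on simulated data, where the DESeq2 likelihood ratio test of the interaction, an alternative, made more false calls than its threshold allows.

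Alternatives were RLE scaling, DESeq2 1.42.0, no filter, Storey q-values, a replicate block, nuclei gated on 1 marker (Hnf4a, Reln, Ptprb or Ptprc), doublets kept, thinning to 500 or 1000 UMIs, macrophage-like nuclei only, 2 zone parts in place of 3, and leaving out each library. Omission of neutrophil-like nuclei the values with and without Themis, and the test of zone by diet were added after the data were seen. The members, gene lists and tests were chosen with earlier results of these data known. All 10 members are named, other listed genes where called (at most 6 per list and lineage, by p), and the 5 genes outside the lists that correlate best with the members' mean.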

Additional observations from a re-analysis of the deposited data

Results flagged for a closer look

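These 6 results stood out because an effect differed between groups by a test of the difference itself. The diet effect of 4 members differed between the lineages of the same livers. These were Klf6 (edgeR adjusted p = 9.48e-05), Fosb (edgeR adjusted p = 0.000239), Egr1 (edgeR adjusted p = 0.0038) and Jun (edgeR adjusted p = 0.0363). Fosb had too few counts to be tested by diet outside hepatocyte-like nuclei, so its value rests on few UMIs there. Jun was lost with DESeq2, under the single-marker gate and without any single library other than chow replicate 1. Egr1 was lost under the gate and without MASH replicate 2. The pericentral minus periportal difference within hepatocyte-like nuclei differed between the diets for Klf10 (edgeR adjusted p = 0.00486) and Egr1 (edgeR adjusted p = 0.0368). This test was added after the values by library were seen, and both calls were lost when either MASH library was left out, and that of Egr1 also without chow replicate 2.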

How the results depend on the processing

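Across the lineages and settings, a member's log2 fold change by diet changed sign in 5 fits in hepatocyte-like nuclei (Fos and Maff without chow replicate 3 and under the block, Jund without MASH replicate 1) and in 8, 17 and 11 fits in stellate-like, endothelial-like and immune-like nuclei, none of them called. In hepatocyte-like nuclei 0 members were called by edgeR, 5 with DESeq2, 3 without a filter on low counts and 4 with Storey q-values, and 0 to 3 when 1 library was left out. All genes called went from 1889 to 3266 with DESeq2 and 3741 with Storey q-values, and to between 122 and 2681 without 1 library. The share of higher genes among those called was 66.5% with edgeR and 52.8% with DESeq2. Other AP-1 and immediate-early genes called went from 5 to 11 with DESeq2, 10 without a filter, 10 with Storey q-values, and 0 to 12 without 1 library.

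In stellate-like nuclei 1 member (Fosb) was called without a filter, where all genes called went from 70 to 506 (135 with DESeq2, 16 to 137 without 1 library) and other immediate-early genes from 1 to 3 (0 to 1 without 1 library). Members called stayed at 0 when 1 library was left out, in the 3 smaller lineages alike. In endothelial-like nuclei the calls were 70 in all, 334 without a filter, 121 under the single-marker gate and 19 to 64 without 1 library, and 2 other immediate-early genes against 4 without a filter (0 to 2 without 1 library). In immune-like nuclei 185 genes became 0 without a filter (0 to 238 without 1 library). The 1 other immediate-early gene called there became 0 without a filter and 3 with Storey q-values, with doublets kept, with macrophage-like nuclei only or without neutrophil-like nuclei (0 to 3 without 1 library). The cause of these changes was not tested.

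Members with a lineage by diet interaction went from 4 to 2 under the single-marker gate and 2 to 4 without 1 library. In the daHep split 4 became 2 with DESeq2, 1 after thinning and 2 to 5 without 1 library. In the zone split 1 became 4 without a filter, 3 with DESeq2, 2 with nuclei cut into 2 parts by zone score and 1 to 3 without 1 library, and for zone by diet 2 became 5 without a filter, 1 with 2 parts and 0 to 4 without 1 library. Thinned shares that did not overlap stayed at 6 to 7 without 1 library.

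The replicate numbers pair nothing that the labels describe, and only 2 numbers are shared. With the replicate block, which leaves chow replicate 3 without a partner, 3 members (Jun, Fosb and Klf6) and 12 other immediate-early genes were called in hepatocyte-like nuclei, and 0 other immediate-early genes in endothelial-like nuclei.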
